A study of Mus musculus with 4 samples.

Results

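The 10 genes described here encode the cell's own makers of nitric oxide, superoxide and hydrogen peroxide, or partner proteins of these enzymes. The genes are Nos2, Duox2, Duoxa2, Nox1, Noxo1, Noxa1, Nox4, Cyba, Cybb and Rac1. They were chosen as a family by name, with earlier results of these data known. All 10 symbols matched one of the 18872 gene identifiers in the deposited tables. The RNA came from epithelial cells isolated from the colon of mice exposed for 3 days to 2% dextran sulfate sodium (DSS), which damages the colon lining and brings on colitis. The 2 genotypes, with 2 libraries each, were wild type and EZH2-IEC-/-, called knockout below, whose label and series title point to loss of EZH2 in the epithelium. EZH2 is the enzyme that places the repressive H3K27 methyl mark. Both groups received DSS, so every value is a difference between genotypes under DSS. The labels give no strain, age or sex, no Cre driver and nothing on pooling. They also leave it unsaid whether the duplicates are separate animals, so the p-values reflect library-to-library spread that could be purely technical.

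NOS2, the inducible nitric oxide synthase, makes nitric oxide from arginine and is regulated mainly through its transcription. NADPH oxidases pass electrons from NADPH across a membrane to oxygen. NOX1, the main oxidase of colon epithelium, makes superoxide and needs the membrane partner CYBA (p22phox), the organizer NOXO1, the activator NOXA1 and the GTPase RAC1. DUOX2 releases hydrogen peroxide from the apical surface of gut epithelium and reaches that surface only with its maturation factor DUOXA2. CYBB (NOX2) is the oxidase of phagocytes, and NOX4 is known from kidney and mesenchymal cells.

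Duox2 and Duoxa2 lie next to each other on mouse chromosome 2 and point away from each other, with 672 bases between the start sites that RefSeq gives (build GRCm38.p6). Their upstream sequences are shown because both genes rose, and those of Nox1 and Cybb because they set the epithelial oxidase beside the phagocyte one. Each sequence is the 250 bases before the start site, 5′ to 3′ on the gene's own strand. The windows are chr2:122298228-122298477 (minus strand) for Duox2, chr2:122298650-122298899 (plus) for Duoxa2, chrX:134111855-134112104 (minus) for Nox1 and chrX:9469325-9469574 (minus) for Cybb. Capitals mark matches, on either strand, to 7 motifs: the TATA box TATAAA, the STAT site TTCNNNGAA, the interferon-stimulated response element, the AP-1 site TGANTCA, the CDX site TTTATG, the GATA site AGATAA and the NF-kB consensus. The interferon element and NF-kB were searched as their usual consensus. No 2 of the marked matches overlap.
Duox2: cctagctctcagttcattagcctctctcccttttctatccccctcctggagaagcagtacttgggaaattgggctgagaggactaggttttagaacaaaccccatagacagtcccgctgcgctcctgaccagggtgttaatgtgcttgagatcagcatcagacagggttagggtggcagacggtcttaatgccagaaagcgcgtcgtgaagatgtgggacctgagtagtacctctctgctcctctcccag
Duoxa2: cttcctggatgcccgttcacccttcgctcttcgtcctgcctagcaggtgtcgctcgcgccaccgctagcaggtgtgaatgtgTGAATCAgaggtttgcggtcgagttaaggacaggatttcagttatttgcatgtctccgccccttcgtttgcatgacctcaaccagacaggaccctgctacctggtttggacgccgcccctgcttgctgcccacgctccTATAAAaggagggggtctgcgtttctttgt
Nox1: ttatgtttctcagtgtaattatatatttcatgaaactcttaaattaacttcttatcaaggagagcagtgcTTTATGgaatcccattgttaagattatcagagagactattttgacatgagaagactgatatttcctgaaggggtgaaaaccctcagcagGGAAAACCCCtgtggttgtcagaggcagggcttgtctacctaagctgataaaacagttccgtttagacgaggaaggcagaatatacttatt
Cybb: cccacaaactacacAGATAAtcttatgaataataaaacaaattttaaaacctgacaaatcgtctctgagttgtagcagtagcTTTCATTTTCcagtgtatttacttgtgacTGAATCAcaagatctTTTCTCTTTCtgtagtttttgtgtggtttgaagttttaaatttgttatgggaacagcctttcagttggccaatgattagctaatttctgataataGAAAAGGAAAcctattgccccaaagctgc

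The Duoxa2 window held TATAAA beginning 30 bases before the start and TGAATCA at 168 bases. The Duox2 window held none of the 7 motifs. The Nox1 window held the NF-kB match GGAAAACCCC at 91 bases and TTTATG at 180 bases before the start. In the Cybb window there were 3 matches to the interferon-stimulated response element, at 29, 124 and 168 bases, with TGAATCA at 139 and AGATAA at 236 bases. Of 32851 RefSeq windows of the same length, 12.4% held the TATA box, 7.02% the STAT site, 2.98% the interferon-stimulated response element, 6.75% the AP-1 site, 7.25% the NF-kB consensus, 10.8% the CDX site and 9.99% the GATA site. These shares count windows with any match and are not matched for base content. GC made up 34% of the Cybb window and 38% of the Nox1 window, against 52.8% for Duox2 and 56.4% for Duoxa2. A match here describes letters and shows no binding. Of the 10 genes, 8 had a window, and Nos2 and Rac1 had none. Among the windows not shown, that of Noxa1 held an NF-kB match at 249 bases and a GATA match at 73 bases before the start. The Cyba window held a GATA match at 220 bases, the Nox4 window a STAT match at 222 bases and the Noxo1 window no match.

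Estimated counts summed to between 5037367 and 5446998 per library. The Ezh2 gene itself had a log2 fold change, knockout minus wild type, of -0.27 ± 0.17 (standard error) and missed the threshold (edgeR adjusted p = 0.217). Which exons the allele lacks is not in the labels, so this gene-level value is no check of the genotype. The epithelial keratins Krt8 and Krt19 were at 2630 to 3785 FPKM (fragments scaled to transcript length and library total) in every library, and of the 10 epithelial markers 6 were higher in knockout and 4 lower. Named after their values were seen, the 4 were Epcam (log2 fold change -0.27), Cdh1 (-0.60), Car1 (-1.37) and Slc26a3 (-1.49). The 6 were Krt20 (1.25), Cdx2 (1.16), Krt18 (0.68), Vil1 (0.58), Krt8 (0.30) and Krt19 (0.29). The calls of Krt8 and Krt19 were lost in limma on FPKM (adjusted p from 0.0508 to 0.376). Markers of other cells were present too. Smooth muscle and fibroblast markers were lower in knockout, 9 of 10 past the threshold, summing to 2322 and 2506 FPKM in wild type against 1047 and 1342 in knockout. Of 4 endothelial markers 3 were lower, 4 of 4 pan-leukocyte markers were higher, and of 5 B and plasma cell markers 2 were higher and 2 lower. Over all genes tested, 23.0% were higher and 20.8% lower at the same threshold, an edgeR adjusted p under 0.05. In bulk RNA, fewer cells of a type and less RNA per cell cannot be told apart.

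Transcripts of the oxidant sources were higher in the knockout, led by Nos2, Duoxa2, Duox2 and Nox1. Of the 10 genes, 9 had enough counts to test. All 9 rose and 0 fell at an adjusted p under 0.05 (edgeR quasi-likelihood, Benjamini-Hochberg over 13608 genes), the test behind every log2 fold change and adjusted p below. In the same test 23.0% of all genes rose and 20.8% fell, 43.7% in either direction. The median log2 fold change was 1.19 over the 9 genes and -0.002 over all genes tested. Scaling shifts that background: with library totals alone the median of all genes was -0.103, and higher genes made up 42.4% of the calls in place of 52.5%. With limma on FPKM rescaled to equal totals they made up 35.9%, with a median of -0.147. All 9 estimates were above 0 in edgeR, DESeq2 and limma and in every alternative that could include the gene, but the calls of Noxa1 and Rac1 did not hold throughout.

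**Figure D1:**
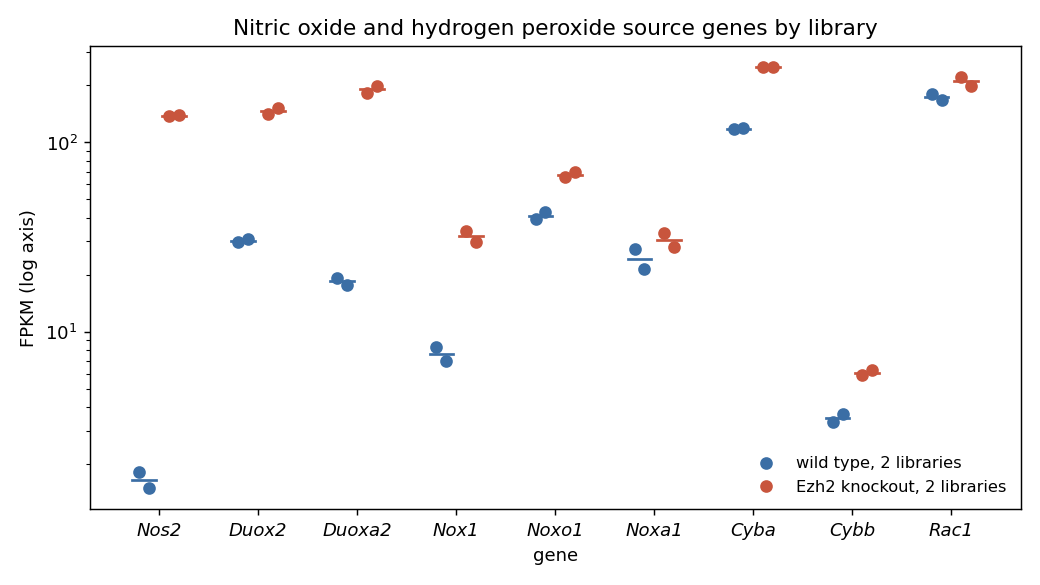
FPKM of the 9 tested genes in each of the 4 libraries on a log axis, with wild type in blue, knockout in red and a bar at the mean of each pair. Nos2 goes from under 2 FPKM to 137 and 140.1 FPKM, while Noxa1 and Rac1 lie close together in the 2 genotypes.

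Nos2 was nearly silent in wild type and abundant in the knockout. The wild-type libraries held 37 and 31 estimated counts, the knockout libraries 2990 and 3136. Its FPKM values were 1.82 and 1.49 against 137 and 140.1, so the groups were far apart and each pair was tight. The log2 fold change was 6.51 ± 0.12, a 91.1-fold rise (adjusted p = 1.04e-08), and ranked 19 from the top of all tested genes. The tables of replicate 1 give Nos2 1 transcript and those of replicate 2 give it 3, but within each annotation the counts differed in the same way. Macrophages are another known site of Nos2 expression. The fixed macrophage and dendritic list summed to 319 and 341.7 FPKM in wild type and to 429.6 and 493.6 in knockout. Of its 13 members 8 rose, where 23.0% of all genes did. The neutrophil list summed to 17.4 and 22.9 against 194.5 and 175 FPKM, with 5 of 7 tested members higher. Mpo, Elane and Ngp had no entry in any library, and Camp had 1 count at most. S100a8, S100a9 and Ltf together made up 2.78 and 4.11 FPKM of that sum in wild type and 169 and 142 in knockout, and the rest went from 14.6 and 18.8 to 25.4 and 32.8. Cxcr2 (log2 fold change 0.39) and Fcgr3 (0.66) did not pass the threshold, and these neutrophil genes were singled out after their values were seen. The T and NK cell list summed to 7.57 and 7.09 against 45.5 and 46.2 FPKM, with 6 of 6 higher. The part of these cells in the Nos2 value was not tested.

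Duox2 and Duoxa2, the peroxide-making pair of the epithelial surface, rose together, with the larger log2 fold change in Duoxa2. Duox2, the oxidase, was at 29.9 and 30.8 FPKM in wild type and at 141 and 153 FPKM in knockout. Duoxa2, the maturation factor, was at 19.2 and 17.7 FPKM in wild type and at 182 and 199.9 FPKM in knockout. Neither gene had overlapping groups. That is a weak criterion with 2 libraries a group: Stat3 and Jak2, which did not pass the threshold, met it too. Its share over all genes is not given here. The log2 fold change was 2.38 ± 0.08 for Duox2 (5.2-fold, adjusted p = 2e-07) and 3.47 ± 0.11 for Duoxa2 (11.1-fold, adjusted p = 7.64e-08). The partner gene thus started below the oxidase gene and ended above it. The ratio of Duox2 to Duoxa2 FPKM was 1.56 and 1.74 in wild type but 0.773 and 0.765 in the knockout libraries. With n = 2 against 2, the exact two-sided permutation test cannot go below the p = 0.333 it gave for that ratio. The ratio uses the deposited length of 4554 bases for Duox2 and 1592 for Duoxa2, so its change between genotypes is better grounded than its level.

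The close relative Duox1 was almost uncounted, at 1.11, 0.67, 1.09 and 0 estimated counts, and was not tested. The fractional Duox1 and Duox2 counts added up to whole numbers, 693, 742, 3501 and 3838, so some reads were divided between the paralogs, and Duox1 received at most 0.16% of the sum. Duoxa1, the partner of DUOX1, had 1 and 0 counts in the wild-type pair, 9 and 7 in the other, too few to pass the count filter of the main test. The Duox2 locus thus supplied nearly all DUOX transcripts in these cells.

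Nox1, the catalytic subunit of the colon oxidase, rose as well. It was at 8.33 and 6.98 FPKM in wild type and at 34.2 and 29.9 FPKM in knockout, with no overlap (log2 fold change 2.17 ± 0.13, 4.49-fold, adjusted p = 3.55e-06). Its partners had smaller log2 fold changes. Noxo1, the organizer, went from 39.3 and 42.7 FPKM to 65.7 and 69.4 FPKM (log2 fold change 0.82 ± 0.10, adjusted p = 0.000183). Noxa1, the activator, was at 27.3 and 21.3 FPKM in wild type and at 33.3 and 27.9 FPKM in knockout, so the lower knockout library was barely above the higher wild-type one. Its log2 fold change of 0.43 ± 0.15 just passed (adjusted p = 0.045), and the call was lost in 8 of 12 alternatives, among them DESeq2 (0.44, adjusted p = 0.142), with adjusted p from 0.00031 to 0.27 over all 12. Without wild-type replicate 2 the estimate was 0.26 (adjusted p = 0.272), and without knockout replicate 1 it was 0.28 (adjusted p = 0.197).

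In FPKM the partner genes exceeded the oxidase gene by far in wild type, and less or not at all in the knockout. There were 4.72 and 6.12 Noxo1 FPKM for each Nox1 FPKM in wild type, against 1.92 and 2.32 in knockout. For Noxa1 the ratio was 3.27 and 3.05 in wild type but 0.975 and 0.931 in the knockout libraries, so Noxa1 and Nox1 ended at nearly equal FPKM. As FPKM depends on the gene lengths used, the change of these ratios between genotypes is better grounded than their level. None of these ratios had overlapping groups, which carries little weight with 2 libraries a group. The ratios were not tested further, because an exact test cannot reach the threshold with so few libraries.

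**Figure D2:**
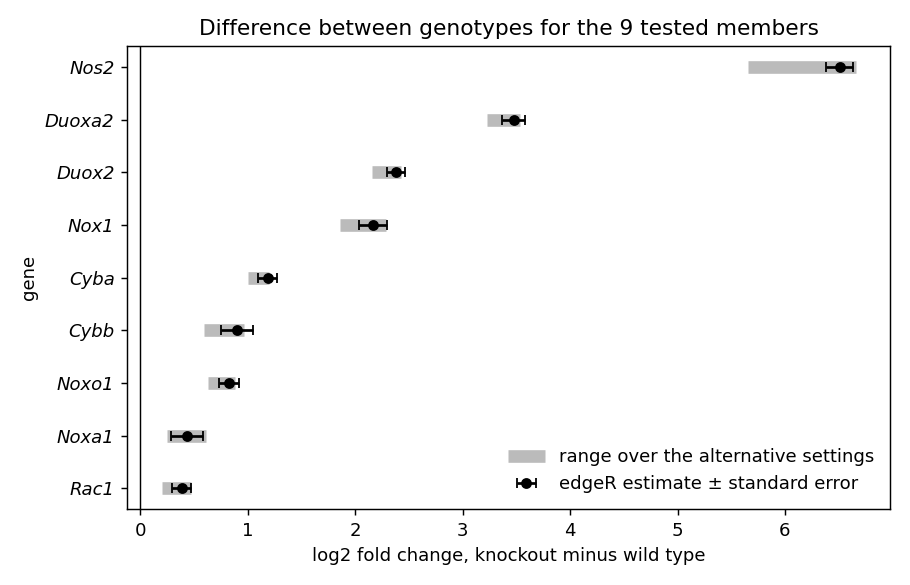
Log2 fold change of the 9 tested genes, knockout minus wild type, as the edgeR estimate with its standard error (black) and the range over the alternative settings (grey). Nos2 stands at 6.51, the pair Duoxa2 and Duox2 at 3.47 and 2.38, and Noxa1 and Rac1 lowest at 0.43 and 0.38.

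Cyba, Cybb and Rac1 are shared with phagocytes or used by many other cell processes. Cyba, the membrane partner that stabilizes NOX1, NOX2 and NOX4, was at 118 and 119 FPKM in wild type and at 250.5 and 250.4 FPKM in knockout (log2 fold change 1.19 ± 0.09, 2.28-fold, adjusted p = 1.33e-05). Rac1, the small GTPase that activates the NOX1 complex and also steers the actin cytoskeleton, was at 181 and 167 FPKM in wild type and at 223 and 199.97 FPKM in knockout. Its groups did not overlap, and the log2 fold change was 0.38 ± 0.09 (1.3-fold, adjusted p = 0.00683). The Rac1 call was lost without wild-type replicate 2 (0.33, adjusted p = 0.0688) and with limma on FPKM rescaled to equal totals (0.20, adjusted p = 0.124).

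Cybb, the phagocyte oxidase, was low in all libraries, at 3.35 and 3.66 FPKM in wild type and at 5.9 and 6.27 FPKM in knockout. It rose by a log2 fold change of 0.90 ± 0.15 (1.86-fold, adjusted p = 0.00127). That lies near the median of 0.82 over the 13 macrophage and dendritic markers, of which 8 rose and 0 fell in edgeR (0 lower also at an unadjusted p under 0.05, and 0 in DESeq2). The most abundant of these, Lyz2 and C1qa, changed by 0.44 and 0.72. Their part in the Cybb value was not tested. Nox1 exceeded Cybb by 2.49 and 1.91 times in wild type and by 5.79 and 4.77 times in knockout. Nox4 had no counts in wild type and 1 count in each knockout library, at or under the 3 counts that a count of 0 still allows, so no difference was detectable at this depth.

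Cytosolic subunits of the phagocyte oxidase were among 11 other NOS, NOX and DUOX genes. Of these 8 were tested, 4 rose and 0 fell (median log2 fold change 0.71, with all 8 estimates above 0). Over all genes 23.0% rose and 20.8% fell. Ncf1 (p47phox), the phagocyte counterpart of Noxo1, rose by 0.78 (adjusted p = 0.00646), a call that DESeq2 did not make (adjusted p = 0.0531). Rac2, the leukocyte form of the GTPase, rose by 1.30 (adjusted p = 7.32e-05) and Rac3 by 1.65 (adjusted p = 0.00188). The counts of Ncf1 and Rac2 were not all whole, so reads may be divided with similar sequences.

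The other members of that group that were tested did not pass the threshold. Ncf4 (p40phox) had a log2 fold change of 0.18 ± 0.29, and Cybc1, a chaperone of the CYBB and CYBA complex, one of 0.30 ± 0.13, which passed when knockout replicate 1 was left out (0.41, adjusted p = 0.0414). The constitutive synthase genes had low counts. Nos3, the endothelial form, had 12 counts in each wild-type library and 18 in each knockout library. Nos1, the neuronal form, had 15 and 46.6 estimated counts against 28 and 66.7 in the knockout, with overlapping counts (log2 fold change 0.64 ± 0.51). Its FPKM values did not overlap, at 0.67 and 0.9 in wild type against 1.17 and 1.24. It passed without wild-type replicate 2 (1.65, adjusted p = 0.03) and without knockout replicate 1 (1.12, adjusted p = 0.0471). Nox3 had no entry in any library.

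The transcripts that encode an oxidant-making enzyme shifted from mainly Duox2 to Duox2 and Nos2 in near-equal amounts. The FPKM of Nos2, Duox2, Nox1, Cybb and Nox4 summed to 43.4 and 42.9 in wild type but to 318 and 329 in the knockout libraries. Duox2 made up 68.9% and 71.7% of that sum in wild type and 44.2% and 46.5% in knockout. Nos2 went from 4.2% and 3.47% to 43.2% and 42.5%. Nox1 went from 19.2% and 16.3% to 10.7% and 9.09%, a smaller share of a larger sum. FPKM counts transcripts per length and says nothing of enzyme amount or activity.

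**Figure D3:**
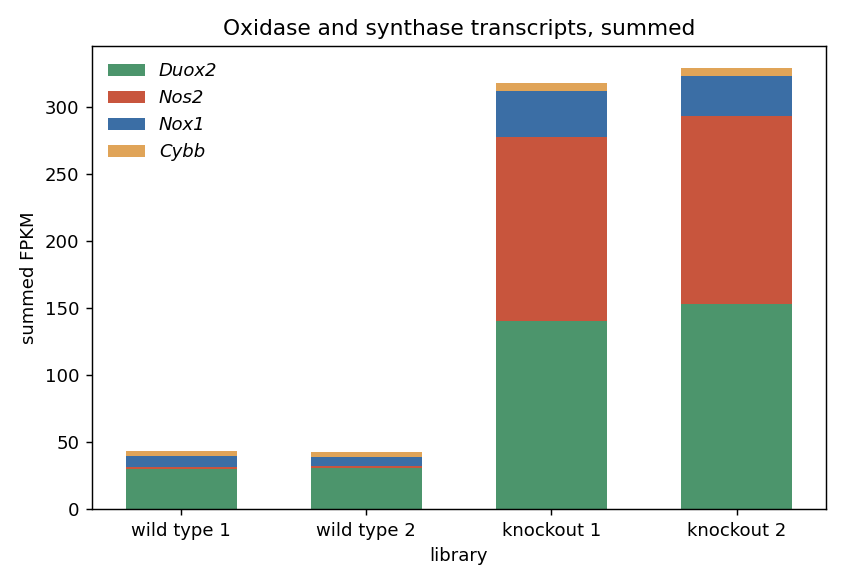
Stacked FPKM of Duox2, Nos2, Nox1 and Cybb in each library. The sum is near 43 in the wild-type libraries, mostly Duox2, and 318 and 329 in the knockout libraries, where the Nos2 and Duox2 segments are of similar height.

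In wild type the order of mean FPKM ± SD (n = 2) was Rac1 (174 ± 10.1), Cyba (118 ± 0.66), Noxo1 (41.0 ± 2.42), Duox2 (30.3 ± 0.64), Noxa1 (24.3 ± 4.21), Duoxa2 (18.4 ± 1.03), Nox1 (7.66 ± 0.95), Cybb (3.5 ± 0.22), Nos2 (1.66 ± 0.23) and Nox4. In knockout it was Cyba (250.4 ± 0.11), Rac1 (211 ± 16.1), Duoxa2 (191 ± 12.6), Duox2 (147 ± 8.65), Nos2 (139 ± 1.91), Noxo1 (67.6 ± 2.6), Nox1 (32.05 ± 2.99), Noxa1 (30.6 ± 3.84), Cybb (6.08 ± 0.26) and Nox4. Neighbours in each order had separate ranges except Nox1 and Noxa1 in the knockout. Nos2 moved from the ninth place to the fifth, and Duoxa2 from the sixth to the third.

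The genes whose profile lay closest to a member over the 4 libraries were found by Euclidean distance between centred log2 library-scaled counts, which in 2 groups of 2 mostly compares the size of the genotype difference. For Nos2 they were Clca4b, Plet1os and Plet1 at distances of 0.315, 0.386 and 0.539. Clca4b, of a goblet and surface cell protein family with close paralogs, went from 9.32 ± 0.11 to 909 ± 29.5 FPKM. Plet1, a surface protein of progenitor cells, went from 8.23 ± 1.5 to 562 ± 0.95 FPKM, and its reads cannot be told apart from those of its antisense partner Plet1os where the counting did not use strand. For Duox2 they were the interferon-inducible GTPase gene Irgm1 (0.056), Gm4841 (0.08) and the sugar transporter gene Slc5a9 (0.081). For Duoxa2 they were the interferon-inducible GTPase gene Igtp (0.119), the chemokine gene Cxcl3 (0.171) and the gene with Entrez identifier 18729, for which the gene table gives no symbol (0.185). The last 2 had no counts in wild type, so their distance depends on the prior count of 2.

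NOS2 needs arginine and tetrahydrobiopterin. Of 14 genes fixed for their supply, 13 were tested, 6 rose and 1 fell (median log2 fold change 0.38). Over all genes 23.0% rose and 20.8% fell. Ddah1, which degrades an endogenous inhibitor of nitric oxide synthases, went from 3.1 and 1.47 FPKM to 39.2 and 36.5 FPKM (log2 fold change 4.16 ± 0.23, adjusted p = 2.09e-06). Gch1, the first enzyme of tetrahydrobiopterin synthesis, went from 13.2 and 13.1 FPKM to 32.4 and 31.5 FPKM (1.38 ± 0.10, adjusted p = 8.84e-06). Spr, the last enzyme of that pathway, rose by 0.42 and Qdpr, which recycles the cofactor, fell by 0.45 on the log2 scale. The Spr call was lost when wild-type replicate 2 was left out (0.38, adjusted p = 0.0515) and in limma on log2(FPKM + 1) with equal totals (adjusted p = 0.0606). Arg2, an arginase that uses the same substrate, rose from 1 and 4 counts to 19 and 18 (2.85 ± 0.59, adjusted p = 0.00407).

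Of 21 receptors and transcription factors known to act on Nos2 or Duox2, 10 rose and 5 fell (median 0.18). Over all genes 23.0% rose and 20.8% fell, so the 5 that fell were near the general share. Besides Ifngr1, those that fell were Il1r1 (log2 fold change -0.86), Relb (-0.49), Ifngr2 (-0.38) and Il22ra1 (-0.38), named after their values were seen. Nfkbiz, a nuclear cofactor of NF-kB, rose by 1.44, Cebpd by 1.13 and Irf8 by 1.10. Irf1, which Nos2 induction in macrophages requires, was at 90.9 and 91.8 against 181 and 224 FPKM and rose by 1.25. The receptor chain gene Ifngr1 was lower, with a log2 fold change of -0.24 (adjusted p = 0.0368) that was lost in DESeq2 (adjusted p = 0.0677), in edgeR with no filter (adjusted p = 0.0661) and without any one of the 4 libraries (adjusted p = 0.0505 to 0.287).

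Among 18 genes that remove superoxide or hydrogen peroxide, 11 rose and 2 fell (median 0.38), against 23.0% and 20.8% of all genes. Gpx2, the gut glutathione peroxidase, went from 269 and 264 FPKM to 1488 and 1315 FPKM (2.50 ± 0.09, adjusted p = 1.89e-07). Txn1 and Txnrd1, the thioredoxin system, rose by 1.23 and 0.94. Prdx6, the most abundant of the list in wild type, fell from 2106 and 2052 FPKM to 1054 and 1118 FPKM (-0.84 ± 0.06, adjusted p = 6.94e-06). In knockout Txn1, at 1529 and 1426 FPKM, and Gpx2 were above it. The list thus held members that moved in opposite directions.

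Of 12 RAC regulators and related GTPases, 6 rose and 1 fell (median 0.51), against 23.0% and 20.8% of all genes. Prex1, a RAC exchange factor found in leukocytes, rose by 1.30, Arhgdib, the leukocyte inhibitor of GDP release, by 0.81, Arhgdia, the general one, by 0.52, and Cdc42 by 0.49. The soluble guanylate cyclase pathway, through which nitric oxide acts on smooth muscle, had 3 of 5 tested members lower and 0 higher (median -0.74, with all 5 estimates below 0). Pde5a, which degrades cyclic GMP, fell by 0.74 and Gucy1a1, a cyclase subunit, by 1.24 on the log2 scale. The Gucy1a1 call was lost in DESeq2 (adjusted p = 0.064). Prkg1, the cyclic GMP kinase of smooth muscle, changed by -1.25 (adjusted p = 0.0232), and that call was lost without wild-type replicate 1 (adjusted p = 0.189), without knockout replicate 2 (adjusted p = 0.0839) and in DESeq2 (adjusted p = 0.153). In limma its adjusted p was 0.0539 on log2(FPKM + 1) and 0.069 on log2(FPKM + 0.01). Smooth muscle markers were lower in the same libraries, with Tagln and Acta2 each at -1.02, and their part in these values was not tested. Of the 5 heme peroxidases 2 were tested: Pxdn fell by 0.73 on the log2 scale (adjusted p = 0.011, or 0.0591 in DESeq2), and Lpo, whose product uses hydrogen peroxide in secretions, had a log2 fold change of 0.28 ± 0.33.

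**Figure D4:**
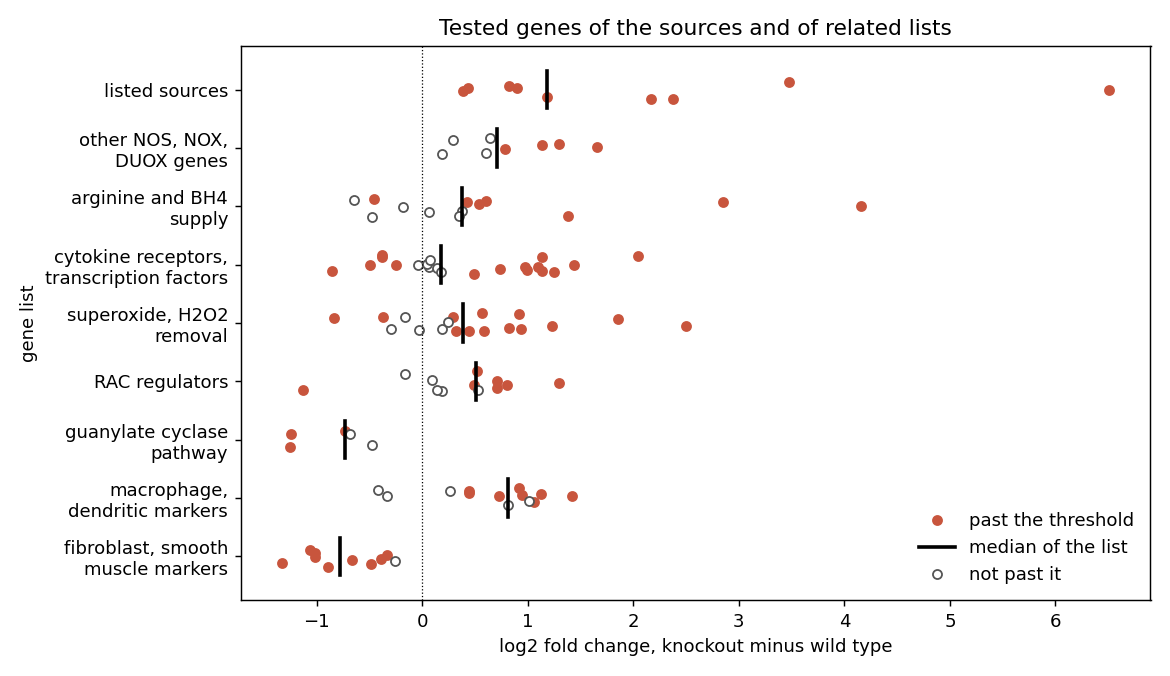
Log2 fold change, knockout minus wild type, of the tested genes of the source family and of 8 related lists, 1 point a gene, filled where it passed the threshold, with a bar at each median. The 9 tested source genes are all filled and above 0, and the guanylate cyclase and the fibroblast and smooth muscle lists lie below 0.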

How the data were processed

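RNA of primary colon epithelial cells from 4 libraries was analysed, 2 wild type and 2 knockout, grouped by their labels. The authors deposited expected counts, estimated counts per gene that need not be whole (78.8% to 80.2% were), and FPKM values, normalized by transcript length and sequencing depth, as the columns of the deposited tables are named. The deposited gene lengths were used to describe Nos2, Duox2 and Duoxa2. The submitters' processing notes name Bowtie2, BWA and the human build hg19 without roles, although the labels give mouse and 99.72% of gene identifiers matched the mouse RefSeq table (GRCm38.p6), which supplied symbols. The sources used here do not name the quantifier. Replicate 1 and replicate 2 tables use different annotations (556 genes listed by all 4 tables had other transcripts between numbers and 0 within).

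The rounded counts entered a quasi-likelihood test (edgeR 4.0.16, R 4.3.3, TMM factors, filterByExpr, two-sided, no block, adjusted p under 0.05), with a common dispersion of 0.0166. Standard errors are the size of the log2 fold change over the root of F. Genes without an entry counted as 0. Limits from a count of 0 use 3 counts per library and cover counting error only. Chi-square per degree of freedom was 2.18 and 2.95 within groups and 38.2 to 44.6 between them, so libraries were kept separate. Alternatives were DESeq2 1.42.0, library totals, no filter, limma 3.58.1 on log2(FPKM + 1 or 0.01), with or without equal totals, genes whose transcript lists match across tables, each library left out and a replicate block.

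The 10 genes and the lists were chosen with earlier results of these data known. Named genes were the 10, all other NOS, NOX and DUOX genes, Ezh2, up to 4 genes of smallest p past the threshold and the 2 most abundant of each related list, the 2 most abundant of each marker list, and the 3 nearest profiles of Nos2, Duox2 and Duoxa2. Motifs were searched with Python 3.11.15 in the 250 bases before the RefSeq start sites, and were chosen with the sequences in view. Some genes that this rule covers are not reported here.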

Additional observations from a re-analysis of the deposited data

How the results depend on the processing

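Nos2, Duox2, Duoxa2, Nox1, Noxo1, Cyba and Cybb kept their direction and call under every alternative that could be run, 12 each and 11 for Nos2, which the same-transcript setting leaves out. Their log2 fold changes ranged from 5.66 to 6.66 for Nos2, 2.16 to 2.43 for Duox2, 3.23 to 3.53 for Duoxa2, 1.86 to 2.29 for Nox1, 0.63 to 0.88 for Noxo1, 1.0 to 1.2 for Cyba and 0.59 to 0.96 for Cybb. The lowest Nos2 value comes from limma on log2(FPKM + 1) with equal totals. Noxa1 ranged from 0.25 to 0.61 and Rac1 from 0.20 to 0.47. DESeq2 called 2196 genes higher and 1721 lower, against 3126 and 2824 in edgeR. It also lowered the number of genes called lower to 2 receptors and transcription factors, 1 gene of peroxide removal, 1 of the guanylate cyclase pathway and 0 heme peroxidases. DESeq2 called 5 macrophage and dendritic markers higher, against 8 in edgeR, and 0 endothelial markers lower, against 3. With same-transcript genes the number of RAC regulators called lower was 0, since Vav2 is left out there. With a library left out, the genes called lower numbered 1 to 2 for arginine and cofactor supply, 2 to 4 for receptors and transcription factors and 1 to 2 for peroxide removal. The cause of these shifts was not tested. Of 705 values for other named genes, 664 kept their call or lack of one, 31 lost the call and 10 gained it. With a call in either setting 0 reversed, and sign changes without a call were not counted. The numbers of the replicates are shared between groups, but no label says that they pair samples. Same-numbered libraries deviated together (r = 0.641 over 11604 genes, or 0.374 over 11139 genes with the same transcripts), and number and annotation cannot be told apart. With the replicate block 3855 genes were higher and 3548 lower, with 9 of the 10 genes described here higher and 0 lower. Of the other NOS, NOX and DUOX genes 6 were then higher, with Cybc1 (0.295, adjusted p = 0.024) and Nos1 (0.66, adjusted p = 0.0444) added. With no filter edgeR called 5 of these genes higher, against 4 with it. By elimination the added gene is Duoxa1, on 1 and 0 counts against 9 and 7. Library totals of 5037367 to 5446998 counts leave Nox4 and Duox1 too low to compare.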
